A study of Danio rerio with 3 samples.

Results

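The genes described here are cd74a and cd74b, the zebrafish genes for the MHC class II invariant chain, and b2m, a gene for beta-2 microglobulin. They were chosen by name, as the rows of the expression table with these gene IDs, and all 3 were found among its 14428 genes. The samples were 3 RNA libraries, 1 per sorted cell population, from about 1000 wild-type zebrafish embryos, 72 hours after fertilization, carrying both the mpeg1:mCherry and the mpx:EGFP transgene and given no treatment. The mCherry+ library came from cells positive for mCherry only, the EGFP+ library from cells positive for EGFP only, and the double-negative library from cells with neither reporter. The mpeg1 promoter drives mCherry in macrophages and the mpx promoter drives EGFP in neutrophils, while the double-negative cells are a mixture of all other cells of the embryo. More than 50000 cells were pooled for each library. Each value below is thus 1 measurement without a replicate error, and no difference could be tested.

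MHC class II molecules carry peptides from endocytosed material to the cell surface, where helper T cells read them. The invariant chain, CD74, binds newly made class II molecules in the endoplasmic reticulum, blocks their peptide groove and directs them to endosomes, where lysosomal proteases remove it step by step. In mammals class II expression is largely a trait of macrophages, dendritic cells and B cells. Beta-2 microglobulin is the light chain of MHC class I molecules, which most nucleated cells carry, and which need it to fold and reach the surface.

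Expression was given as FPKM, the fragments of a gene relative to its transcript length and to the size of the library, so levels of different genes can be set side by side per length. The FPKM sums were between 356886 and 696949, lowest in the double-negative library, and the number of reads behind them is unknown. Ratios are log2 of FPKM + 1, a scale on which low genes differ by less than their FPKM does, and a gene was called past 4-fold on that scale. The sort was checked with the genes whose promoters drive the reporters. mpeg1 was at 1396 FPKM in mCherry+, 9.92 in EGFP+ and 2.84 in double-negative cells, and mpx at 55.8, 12480 and 3.1 in the same order. Scatter was gauged from 47 housekeeping genes, whose log2 ratios had an SD of 0.57 between mCherry+ and double-negative cells, 0.65 between EGFP+ and double-negative cells and 0.64 between both reporter populations. This is a spread between genes, not between replicates. Median-ratio scaling over 5361 genes placed the mCherry+ library 0.37 and the EGFP+ library 0.48 above the double-negative library on the log2 scale, and mCherry+ 0.10 below EGFP+ (a shift of −0.10). Values are given without this correction unless stated.

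The invariant chain genes were high in the mCherry+ library alone of the 3 libraries. The value of cd74b was 37.3 FPKM in mCherry+ cells, 1.66 in EGFP+ cells and 1.53 in double-negative cells. The value of cd74a was 12.1 FPKM in mCherry+ cells, 0.328 in EGFP+ cells and 0.534 in double-negative cells. Both genes thus stood at a low level outside the macrophage reporter population, and the EGFP+ and double-negative values lay close together. Within the mCherry+ library cd74b was above 85.9% of all genes in the table and cd74a above 68.3%. In the EGFP+ library they were above 32.5% and 17.4% of genes, and in the double-negative library above 24.5% and 15.3%.

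**Figure D1:**
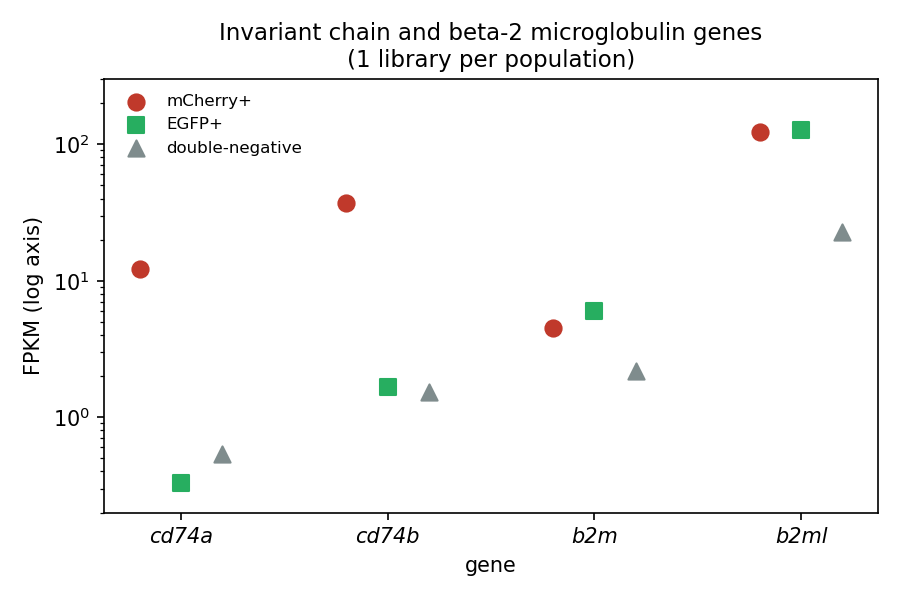
Expression of cd74a, cd74b, b2m and the related gene b2ml (FPKM, log axis), 1 point for each of the 3 libraries and no error, since each population had 1 library. cd74a and cd74b stand at 12.1 and 37.3 in mCherry+ and below 2 elsewhere, whereas b2m lies between 2.19 and 6.04 and b2ml between 22.7 and 128 in all libraries.

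Against double-negative cells, on the scale of FPKM + 1, cd74b was 15.1-fold higher in the mCherry+ library (log2 ratio 3.92) and cd74a 8.55-fold higher (log2 ratio 3.10). In FPKM itself the 2 genes differed less from each other, with double-negative values at 4.11% (cd74b) and 4.41% (cd74a) of the mCherry+ values. The gap between their folds thus depends on the pseudocount, and with 0.1 the log2 ratios were 4.52 and 4.27. Genes that reached 1 FPKM in any library numbered 12285. Of these, 8.18% passed 4-fold upward in this comparison, both invariant chain genes among them, and 7.36% passed it downward. With the pseudocount of 1, the double-negative values of the 3 genes were too low for any of them to pass downward. cd74b ranked 265 and cd74a 447 from the highest ratio. By comparison, mpeg1 ranked 5, with a log2 ratio of 8.51. Of all calls past 4-fold, 52.6% were higher in mCherry+ as deposited. That share was 26.2% to 36.3% under 3 scalings (equal FPKM sums, the median ratio, or the housekeeping genes). Under these scalings the log2 ratio was 3.45 to 3.66 for cd74b and 2.78 to 2.91 for cd74a. With a pseudocount of 5, however, the cd74a ratio was 1.63, below 4-fold. These are bulk libraries, so a lower level can reflect fewer cells with the transcript or less of it per cell, which cannot be told apart.

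The mCherry+ and EGFP+ libraries differed by a similar amount in these genes. cd74b was 14.4-fold (log2 ratio 3.85) and cd74a 9.88-fold (log2 ratio 3.30) higher in the mCherry+ library than in the EGFP+ library, a comparison in which 3.9% of all genes passed 4-fold upward. They ranked 116 and 180 among the 12285 genes. With a pseudocount of 5 the cd74a log2 ratio was 1.68, below 4-fold. With a pseudocount of 0.1 it was 4.84, against 4.41 for cd74b, so the order of the 2 genes depends on the pseudocount. This comparison shares the mCherry+ library with the previous one, so the similar ratios are not separate evidence. Of the calls in this comparison, 53.9% were higher in mCherry+ as deposited, and 63.8% with equal FPKM sums.

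Neutrophil reporter cells and double-negative cells showed no such difference in the invariant chain. The log2 ratio of EGFP+ over double-negative was 0.07 for cd74b and −0.21 for cd74a, near the median of −0.05 over all genes tested. The housekeeping genes had a median of 0.71 and an SD of 0.65 in this pair. At such low FPKM values the pseudocount of 1 keeps downward ratios small, so these ratios do not show equal levels. With a pseudocount of 0.1 the cd74a ratio was −0.57. The sign for cd74b turned negative under each of the 3 scalings, for example −0.23 after median-ratio scaling. With 1 library each, the order of these 2 populations in either gene is not established. None of the 3 genes passed 4-fold upward in this comparison, in which 8.53% of all genes did so. Downward, 5.38% of all genes passed, but the double-negative values of the 3 genes were too low for such a call. Of the calls in this comparison, 61.3% were higher in EGFP+ as deposited, against 19.8% to 36.4% under the scalings.

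**Figure D2:**
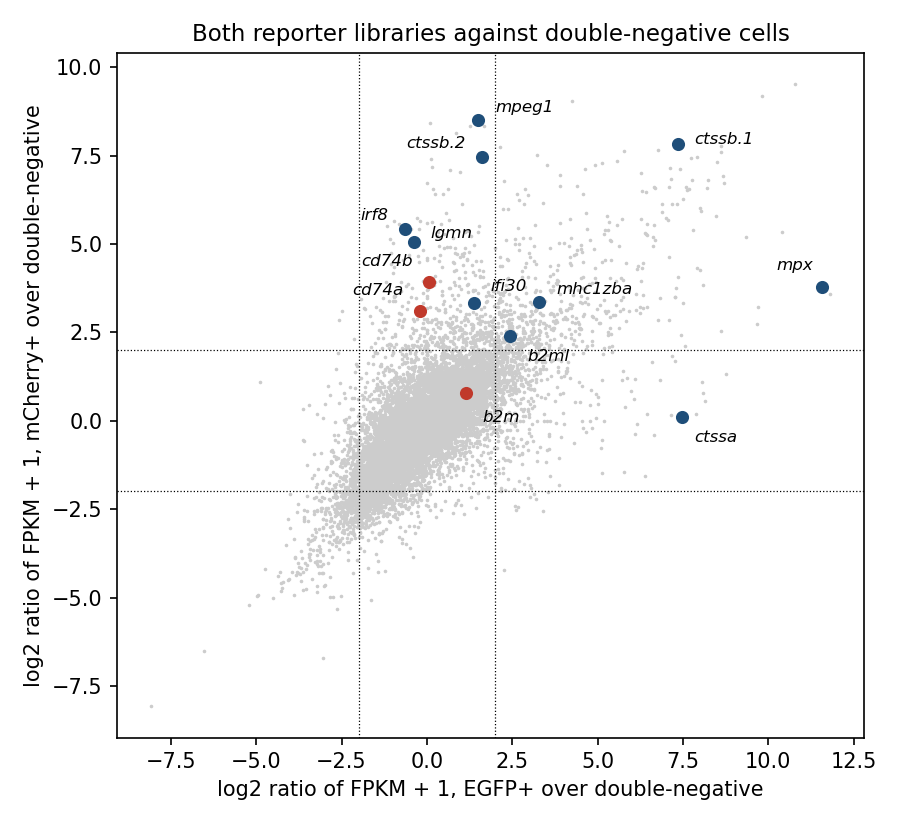
Log2 ratios of FPKM + 1 for 12285 genes (grey points), EGFP+ over double-negative on the x axis and mCherry+ over double-negative on the y axis, with cd74a, cd74b and b2m in red, other named genes in blue and dotted lines at 4-fold. cd74a and cd74b lie near 0 on the x axis at 3.10 and 3.92 on the y axis, as do lgmn and irf8 higher up, while b2ml and mhc1zba lie past 4-fold on both axes and b2m inside the dotted square. Both axes share the double-negative library.

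The 2 paralogs kept a similar proportion in 2 of the 3 libraries. FPKM of cd74b was 3.08 times that of cd74a in the mCherry+ library and 2.87 times in the double-negative library. In the EGFP+ library the quotient was 5.07. Both quotients outside the mCherry+ library rest on low cd74a values, 0.534 in the double-negative and 0.328 in the EGFP+ library. Whether reads were divided between the paralogs in the quantification was not tested.

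The levels of the invariant chain genes outside the mCherry+ library were set beside those of a list of macrophage genes. The 14 macrophage genes found, among them mpeg1, csf1ra (the receptor for colony-stimulating factor 1), c1qa, c1qb and c1qc (the complement C1q chains), and grna (a progranulin), were all at least 4-fold higher in mCherry+ than in either other library. Of all genes, 8.18% passed 4-fold upward against double-negative and 3.9% against EGFP+ cells. The macrophage list was chosen with earlier results of these data known, so it is not an independent standard. The summed FPKM of the 14 genes was 5840 in the mCherry+, 156 in the EGFP+ and 16.7 in the double-negative library, and none was listed at 0. In the double-negative library these genes stood at 0.115% to 1.55% of their mCherry+ level, with a median of 0.303%. cd74a stood at 4.41% and cd74b at 4.11%, above all 14 of them. In the EGFP+ library the macrophage genes stood at 0.384% to 20.1% of their mCherry+ level (median 0.942%), and cd74a at 2.70% and cd74b at 4.45% were above 12 of the 14. Their remaining level outside the mCherry+ library was thus a larger share than that of most of these genes, with FPKM values below 2 behind it. This share also depends on the mCherry+ level, which was 12.1 for cd74a and 37.3 for cd74b. The lowest of the 14 macrophage genes there, c1qb, was at 43.4. In FPKM, cd74a (0.534) and cd74b (1.53) lay within the double-negative range of the 14 genes, from 0.128 (c1qb) to 2.84 (mpeg1).

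**Figure D3:**
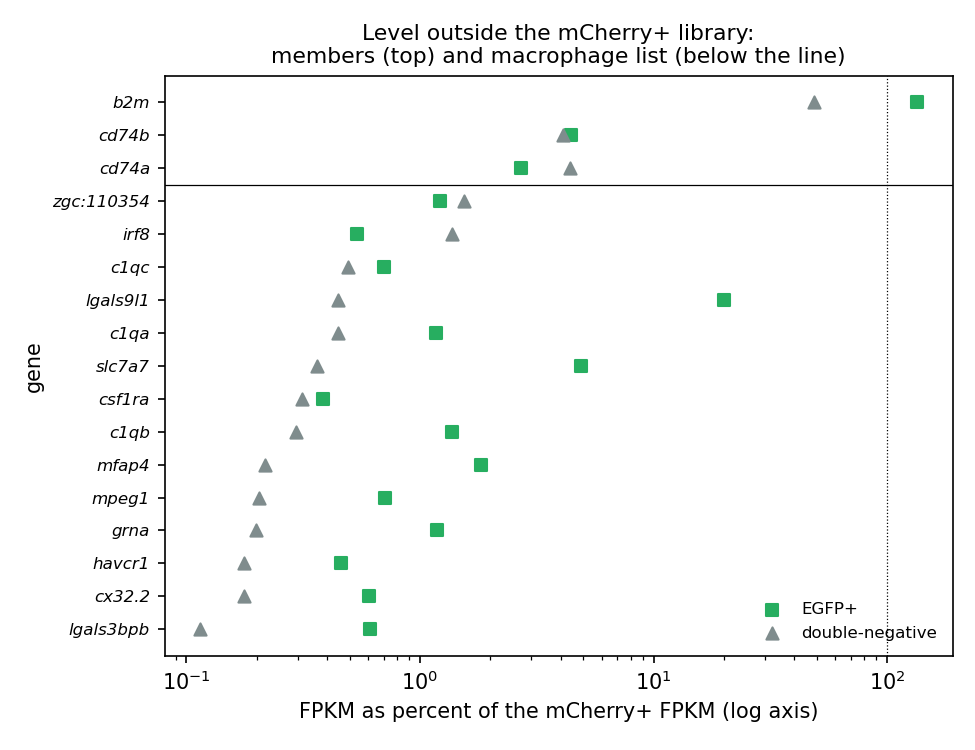
FPKM in the EGFP+ (squares) and double-negative (triangles) libraries as a percent of the mCherry+ FPKM (log axis) for b2m, cd74b and cd74a and, below the line, the 14 macrophage genes. The double-negative triangles of cd74a and cd74b, at 4.41% and 4.11%, lie to the right of all 14 macrophage genes, whose highest is 1.55%, and b2m is at 48.6% and 134%.

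Marker genes of lymphoid, dendritic and other cells were looked at in the same libraries, though several listed genes were not matched. Of 18 lymphoid entries, 11 were found, and the B cell genes cd79a, cd79b, ighm, ighd and igic1s1 were not. B cells can therefore hardly be judged from this list. Among the 11 found, 7 had an FPKM below 1 in all libraries, and the T cell receptor kinase gene zap70 was listed at 0 throughout. The highest lymphoid genes were ikzf1, a transcription factor gene also active in other blood cells, at 8.55 in the mCherry+ and 45.3 in the EGFP+ library, and tox, at 16.4 in the double-negative library. The B cell factor gene pax5, which is also active in neural tissue, was at 3.17 in the double-negative and 0.449 in the mCherry+ library. The summed FPKM of the lymphoid list was 13.8 in the mCherry+, 57.1 in the EGFP+ and 21.3 in the double-negative library. Of 8 entries for dendritic cell markers, 5 were found, and flt3, zbtb46 and xcr1a.1 were not. Among the 5, ccr7 and cd209 were listed at 0 in all libraries. batf3 was at 0 in the mCherry+ library, against 10.3 in the EGFP+ library. The list sums of 308, 187 and 188, in the order mCherry+, EGFP+ and double-negative, came mostly from id2a and nr4a3, which are active in many cell types. In the same order, id2a was at 79.5, 86.7 and 168, and nr4a3 at 229, 89.8 and 19.5. Thus nr4a3, like cd74a and cd74b, was highest in the mCherry+ library. It passed 4-fold upward against double-negative cells in both reporter libraries (log2 ratios 3.48 in mCherry+ and 2.14 in EGFP+). Neutrophil genes summed to 1132 in the mCherry+ library and 42804 in the EGFP+ library. Most of the 1132 came from csf3r and ncf1, at 365 and 313 in mCherry+ against 659 and 718 in EGFP+ cells. By contrast, mpx was at 55.8 in mCherry+ and 12480 in EGFP+ cells. The 12 epidermal genes summed to 1182 in the mCherry+ and 3990 in the double-negative library. The part of lymphoid, dendritic, neutrophil and epidermal cells in the cd74a and cd74b values was not tested.

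The few class II chain genes found had low values. Of 31 entries of the class II list, cd74a and cd74b included, 15 other genes were found. They included 3 genes for class II chains, and the other chain genes on the list were not matched and are not analysed here. mhc2dab was at 0.188 FPKM in mCherry+ cells and at 0 in the other populations. mhc2dbb, listed under an older clone name, was at 1.25 in the double-negative library, close to the 1.53 of cd74b there, and at 0 in both reporter libraries. mhc2dgb, also under a clone name, was at 0 in all. None of these 3 genes thus reached an FPKM of 1 in the library where the invariant chain was high. How reads of these polymorphic, multicopy genes were assigned was not tested, and a listed 0 is not read as absence. rfxank, a subunit of the RFX complex that binds class II promoters, was at 1.91 in the mCherry+, 4.68 in the EGFP+ and 1.14 in the double-negative library.

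Proteases of the endosome cleave the invariant chain and endocytosed proteins in mammals, and several of their genes had higher levels per length than cd74b in the mCherry+ library. Besides the members, 6 of the 15 class II list genes passed 4-fold upward in mCherry+ over double-negative cells and none downward, against 8.18% upward and 7.36% downward over all genes. The same 6 passed under each pseudocount and scaling tried. With a pseudocount of 0.1 mhc2dbb passed downward, as did 15.9% of all genes. The median log2 ratio over the 15 genes was 0.45, against −0.04 over all genes tested and 0.50 over the housekeeping genes. The 15 include 2 genes below 1 FPKM in all libraries, which the median and the shares over all genes leave out, here and below. Of the other 13, 6 passed upward. lgmn, the asparaginyl endopeptidase legumain, was at 792 FPKM in mCherry+, 17.4 in EGFP+ and 23.0 in double-negative cells. ctssb.2, a cathepsin S gene, was at 551, 8.50 and 2.11 in mCherry+, EGFP+ and double-negative cells, and ctsl1a, a cathepsin L gene, at 1417, 56.4 and 180. ifi30, the lysosomal thiol reductase that opens disulfide bonds of antigens, was at 54.9, 13.5 and 4.58. The other genes of the 6 were ctssb.1 and ctsl.1.

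The cathepsin S genes divided between the reporter populations. ctssb.1 was high in both, at 1094 in the mCherry+ and 783 in the EGFP+ library against 3.78 in the double-negative library. ctssa was at 325 in EGFP+ cells, 0.98 in mCherry+ cells and 0.842 in double-negative cells, a log2 ratio of −7.36 for mCherry+ over EGFP+, opposite in direction to cd74a and cd74b. In the EGFP+ library 3 of the 15 genes were at least 4-fold above the double-negative level (ctssa, ctssb.1 and ctsl.1), against 8.53% of all genes. The gene ctsl1a was at least 4-fold lower under the 3 scalings though not as deposited (log2 ratio −1.66). Under these scalings 10.4% to 17.9% of all genes were that much lower, so nothing particular to the list is read from it. With a pseudocount of 0.1, mhc2dbb passed downward in EGFP+ cells, as did 13.5% of all genes. Between the reporter populations, 4 of 15 were at least 4-fold higher in mCherry+ (lgmn, ctssb.2, ctsl1a and ctsl.1), against 3.9% of all genes, and ctssa was lower, a direction in which 3.34% of all genes passed 4-fold. ifi30 joined the 4 under each scaling.

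Downstream steps showed less difference. sppl2, an intramembrane protease gene of the family that cleaves the last invariant chain fragment in the mouse, was at 5.54 in the mCherry+, 6.87 in the EGFP+ and 11.7 in the double-negative library. sppl3, another member of that protease family, was at 30.7, 42.6 and 27.2. march8, a ubiquitin ligase gene whose mammalian product removes class II molecules from the surface, was at 61.2 and 65.4 in the reporter libraries and 20.3 in the double-negative library, below 4-fold.

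**Figure D4:**
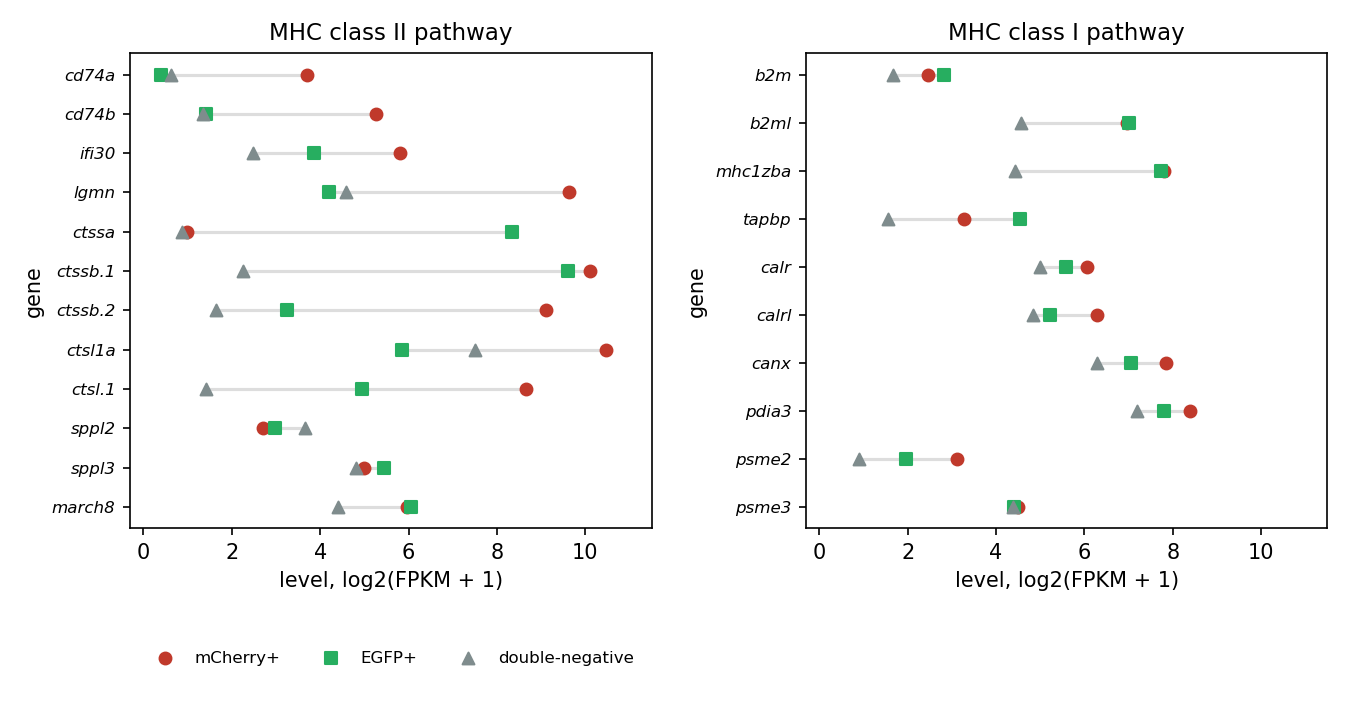
Level as log2(FPKM + 1) of the class II (left) and class I (right) pathway genes that reached 5 FPKM in any library, with circles for mCherry+, squares for EGFP+ and triangles for double-negative, 1 library each. In the class II panel cd74a, cd74b, lgmn, ctssb.2 and ctsl1a have the mCherry+ circle far to the right of both others and ctssa has the EGFP+ square there. In the class I panel b2ml and mhc1zba have circle and square together, to the right of the triangle.

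The protein CD74 is also a surface receptor for the cytokine MIF in mammals, with CD44 and CXCR4 among its partners. mif had an FPKM of 14.1 in the mCherry+, 24.2 in the EGFP+ and 18.4 in the double-negative library, and its paralog ddt had 26.0, 29.0 and 56.2, all within 4-fold. cxcr4b was at 93.4 in the mCherry+ and 224 in the EGFP+ library against 8.13 in the double-negative library. Of 9 entries of this list 4 were found, and the CD44 genes cd44a and cd44b were not. cxcr4b was the 1 gene of the 4 that passed 4-fold upward against double-negative cells. Of all genes, 8.18% did so in mCherry+ and 8.53% in EGFP+ cells, and nothing particular to the list is read from this count. Its paralog cxcr4a was between 1.24 and 2.13 in the 3 libraries.

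Co-stimulation is the second signal that antigen-presenting cells give to T cells. The few genes of its list that were found were higher in the mCherry+ than in the EGFP+ library. The genes cd80, cd86, icosl, cd274, pdcd1lg2 and tnfsf9 were not found, so co-stimulation as a whole cannot be judged from this list. All 3 genes found of 9 entries passed 4-fold upward as deposited, against 3.9% of all genes, and cd40 did not pass with a pseudocount of 5. cd40, a receptor for T cell help, was at 76.7 in the mCherry+, 16.5 in the EGFP+ and 1.71 in the double-negative library. The gene listed as si:ch211-149p10.2, now named cd83 after a marker of mature antigen-presenting cells, was at 473, 48.2 and 5.78. cd276, a B7 family gene, was at 51.6, 7.32 and 19.2, so that its EGFP+ level lay below the double-negative level.

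Among regulators, irf8, a transcription factor needed for macrophage development in zebrafish, was highest in the mCherry+ library, as were cd74a and cd74b. Its FPKM was 105 in the mCherry+, 0.565 in the EGFP+ and 1.44 in the double-negative library, and it is also a gene of the macrophage list. spi1a and spi1b, which encode PU.1 factors of myeloid cells, were instead high in both reporter libraries (spi1a 313 and 188, spi1b 192 and 391, in the order mCherry+ and EGFP+). The interferon gamma receptor genes crfb6 and crfb13 were at 122 and 117 in the mCherry+ library, 68.2 and 60.6 in the EGFP+ library and 25.7 and 15.6 in the double-negative library. Another interferon gamma receptor gene of the list, crfb17, was instead highest in the EGFP+ library. Its FPKM was 14.5 in the mCherry+, 34.02 in the EGFP+ and 9.47 in the double-negative library, all within 4-fold. stat1a, which carries the interferon signal, was at 33.4, 53.7 and 19.8 in the same order, and irf1b between 5.42 and 7.07. The interferon gamma gene listed as ifng1-2 was at 5.63 in the EGFP+ library and at 0 in the others. Of the 13 regulator genes found, 5 passed 4-fold upward in mCherry+ over double-negative cells, against 8.18% of all genes. In EGFP+ over double-negative cells 3 passed, against 8.53% of all genes. None passed downward as deposited, against 7.36% and 5.38% of all genes. The double-negative values of irf8, spi1a and spi1b, among others, were too low for a downward call. The shares over all genes leave out genes below 1 FPKM in all libraries, and 9 of the 13 reached that value. crfb6 did not pass in mCherry+ cells under any of the 3 scalings, which left 4, and ifng1-2 did not pass in EGFP+ cells with a pseudocount of 5. With a pseudocount of 0.1, irf1a and irf4a, both listed at 0 in EGFP+ cells and below 1 in all libraries, passed downward there. At that setting 13.5% of all genes did so.

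The beta-2 microglobulin gene b2m had single-digit FPKM values in every library. It was at 4.51 FPKM in mCherry+, 6.04 in EGFP+ and 2.19 in double-negative cells, above 50.1%, 55.1% and 29.2% of all genes in these libraries. Both reporter libraries were above the double-negative library, but b2m passed 4-fold in no comparison. Relative to double-negative cells its log2 ratio was 0.79 in mCherry+ and 1.14 in EGFP+ cells, while the median of the housekeeping genes was 0.50 and 0.71. After median-ratio scaling these ratios were 0.51 and 0.78, and with equal FPKM sums 0.28 and 0.40. Between the reporter populations the log2 ratio was −0.35 for mCherry+ over EGFP+, within the housekeeping scatter of 0.64. In the order EGFP+, mCherry+, double-negative, neighbours thus differed by less than the housekeeping SD after median-ratio scaling. The outer pair, EGFP+ and double-negative, differed by 0.78 with that scaling, more than its SD of 0.65. It differed by 0.59 after housekeeping scaling and by 0.40 with equal FPKM sums, both less than this SD.

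Most beta-2 microglobulin signal was assigned to a second gene, b2ml, which is not one of the 3 genes chosen. b2ml had an FPKM of 124 in the mCherry+, 128 in the EGFP+ and 22.7 in the double-negative library. This was 27.5 times the b2m value in the mCherry+ library, 21.2 times in the EGFP+ library and 10.4 times in the double-negative library. b2m made up 3.51%, 4.50% and 8.79% of the summed FPKM of both genes in these libraries. The current RefSeq gene table gives b2m as an older name of b2ml, and how the authors' annotation and read assignment separated them was not tested. b2ml was at least 4-fold above the double-negative level in both reporter libraries as deposited (log2 ratios 2.39 and 2.44), but in the mCherry+ library not with equal FPKM sums or after housekeeping scaling, and in the EGFP+ library under none of the 3 scalings.

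The class I heavy chain gene mhc1zba was distributed like b2ml. Its FPKM was 222 in the mCherry+, 212 in the EGFP+ and 20.6 in the double-negative library, log2 ratios of 3.36 and 3.30 against double-negative cells, past 4-fold under every pseudocount and scaling tried. The heavy chain gene mhc1laa, listed under a clone name, was at 1.97, 2.85 and 2.46 in the same order, and mhc1uba and mhc1uka were listed at 0 in all libraries. Besides b2m, 22 of 51 entries of the class I list were found. Against double-negative cells, b2ml, mhc1zba and psme2 were at least 4-fold higher in the mCherry+ library, and b2ml, mhc1zba and tapbp in the EGFP+ library, with none lower in either. These 3 of 22 genes stand against 8.18% and 8.53% of all genes in the same comparisons, and none lower against 7.36% and 5.38%. Nothing particular to the list is read from such small counts. With equal FPKM sums, mhc1zba alone passed in mCherry+, and mhc1zba and tapbp in EGFP+. Of all genes, 5.37% and 4.40% passed upward in these libraries at that setting. The median log2 ratio over the 22 genes was 0.65 in mCherry+ and 0.25 in EGFP+ cells. It was −0.04 and −0.05 over all genes tested, and 0.50 and 0.71 over the housekeeping genes. The 22 include 8 genes below 1 FPKM in all libraries, which the median and the shares over all genes leave out. Of the other 14, 3 passed upward in each of these comparisons. Between the reporter populations 0 of 22 passed 4-fold as deposited, where 3.9% of all genes passed upward and 3.34% downward. With a pseudocount of 0.1, 3 passed upward and 1 downward, against 7.31% and 6.71% of all genes. Nothing particular to the list is read from these counts either.

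Peptide supply and loading genes of class I differed in which reporter population was highest. tapbp, the loading chaperone tapasin, had an FPKM of 8.61 in the mCherry+, 22.2 in the EGFP+ and 1.93 in the double-negative library. psme1 and psme2, which encode the proteasome activator PA28, were at 4.77 and 7.65 in the mCherry+, 0.927 and 2.87 in the EGFP+ and 0.65 and 0.85 in the double-negative library. The immunoproteasome subunit genes psmb8, psmb9a and psmb10 were below 1 in all libraries. The general chaperones of the endoplasmic reticulum that also serve class I folding were highest in the mCherry+ library: canx (calnexin) at 230, 132 and 77.5, calr (calreticulin) at 65.7, 46.6 and 30.9, and pdia3 at 336, 221 and 145 in the order mCherry+, EGFP+ and double-negative, all within 4-fold.

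The genes with values most like each member were found by Euclidean distance between log2(FPKM + 1) levels over the 3 libraries, among 10148 named genes. Nearest to cd74a were trim8b, caspb, s100a1, lgals3bpa and tlr1, at distances of 0.47 to 0.72. caspb, an inflammatory caspase gene, had an FPKM of 12.1 in the mCherry+, 0.82 in the EGFP+ and 0.325 in the double-negative library. Nearest to cd74b were mitfb, pparg, plxnb2b, snx8a and birc7, at 0.56 to 0.84, and pparg, a lipid-sensing nuclear receptor gene, was at 24.6, 1.32 and 1.29. Nearest to b2m were fem1c, brca2, orc6, atg4a and hsc70, at 0.12 to 0.17, of which brca2, a DNA repair gene, was at 4.73, 6.26 and 2.42. Within a distance of 0.5 there were 67 genes for b2m, 1 for cd74a and 0 for cd74b. Many genes therefore lay close to b2m in level over the 3 libraries, and few close to cd74a and cd74b. The distance does not measure which library is highest, and lgmn and irf8, like cd74a, were highest in the mCherry+ library, at higher levels.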

How the data were processed

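The deposited data were 1 table of FPKM values, computed by the authors per gene and library; TopHat2 2.0.11, Cufflinks 2.2.1, cutadapt and the build danRer7 are named, per the submitters' processing notes, without settings. Per the labels' protocols, libraries were made from 50 ng of total RNA after depletion of ribosomal RNA, with a SMARTer low-input kit. FPKM depends on the transcript models and on how multi-mapped reads are shared, so paralogs and polymorphic MHC genes are less certain. To look for whole reads in low values, genes under 0.5 FPKM in a pair of libraries were compared: among 219 to 329 such genes, no log2 window of 0.02 held over 4.10% of genes. Depth was not recovered, and no counting interval is given.

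Log2 ratios used a pseudocount of 1, and whole-table counts a minimum FPKM of 1 in at least 1 library. Calls were past 4-fold, with no test, since each population had 1 library. The counting step was tested on simulated data, which checks the computation and not the error of these libraries. List entries were matched by gene ID or by an unambiguous older symbol in RefSeq (GRCz12tu, names only). Described list genes had an FPKM of 5 or more in 1 library; genes below that value (class II chains, rfxank, cxcr4a, psme1, immunoproteasome subunits, mhc1laa, mhc1uba, mhc1uka, irf1a, irf4a) and marker genes beyond 3 a list were named after their values were seen. The 5 nearest genes per member followed a fixed distance rule that left out clone names and small RNAs. The members and lists were chosen with earlier results of these data known. Alternatives were pseudocounts of 0.1 and 5, 3 scalings, other filters and other fold thresholds. Python 3.11.15 and pandas 2.3.3 were used. No sequences of these genes are shown.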

Additional observations from a re-analysis of the deposited data

How the results depend on the processing

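No paired analysis was possible because each population had 1 library. For the same reason no library could be left out. A ratio was taken as moved where it changed by more than the housekeeping SD of its pair. Of the 9 member ratios, all stayed within that SD under median-ratio and housekeeping scaling. With equal FPKM sums, the b2m ratio of EGFP+ over double-negative moved from 1.14 to 0.40. With a pseudocount of 0.1 the cd74a ratios were 4.27 against double-negative and 4.84 against EGFP+ cells, and the cd74b ratio over double-negative was 4.52. The cd74b ratio over EGFP+ was 4.41, which stayed within the SD. With a pseudocount of 5 the cd74a ratios were 1.63 and 1.68 and the cd74b ratios 2.69 and 2.67, in the same order of comparisons. cd74a was then no longer past 4-fold. A larger pseudocount shrinks ratios of low values by construction. Counts over all genes depended on the threshold and scaling: genes higher in mCherry+ than in double-negative cells numbered 480 at 8-fold and 2445 at 2-fold against 1005 at 4-fold, and genes higher in EGFP+ numbered 486 and 2609 against 1048. Genes lower than in double-negative cells were 1884 for mCherry+ and 2225 for EGFP+ with equal FPKM sums, against 904 and 661. Class I list genes higher in mCherry+ than in double-negative cells were 3 of the 22 found as deposited. They were 1 with equal FPKM sums or housekeeping scaling and 7 with a pseudocount of 0.1. The share of all genes moved in the same directions. It was 8.18% as deposited, 5.37% with equal FPKM sums, 5.98% with housekeeping scaling and 10.48% with a pseudocount of 0.1. These shares leave out genes below 1 FPKM in all libraries, and 14 of the 22 reached that value. Nothing particular to the list is read from these changes. Unknown depth limits every value below an FPKM of about 1, which covers cd74a outside the mCherry+ library.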

Other observations

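Other genes named for MHC chains, outside the lists and chosen after their values were seen, were low as well. hla-dpa1, named after a class II alpha chain, was at 1.0 FPKM in mCherry+ cells and listed at 0 in the other libraries. mhc1ze, named after a class I heavy chain, was at 2.64 in the mCherry+ library and 0 in the others, and mhc2dcb was at 0 in all 3.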
